A study of Saccharomyces cerevisiae with 279 samples.

Results

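The very long transcripts of budding yeast are the mRNAs whose deposited transcript length is 5000 nt or more. They were taken by length alone from the nuclear ORFs that the deposited annotation classifies as verified or uncharacterized. The rule found 87 mRNAs among 5137 with a deposited length, and 494 others measured from 3000 nt to under 5000 nt, called here the 3000 to 5000 nt class. In Sed-seq a yeast lysate is centrifuged, RNA of the Total lysate, the supernatant and the pellet is sequenced, and pSup is the fraction of an mRNA left in the supernatant. In Polysome-seq clarified lysate is run on a sucrose gradient whose fractions are then sequenced. The series holds 77 Sed-seq lysates and 14 Polysome-seq lysates, in pairs of replicates except for 7 strains of a reporter experiment and the 42°C groups of the cycloheximide (CHX) experiment, which had 1 lysate each.

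All cells were Saccharomyces cerevisiae, a single cell type. The strain BY4741 was kept at 30°C or heated for 10 min to 42°C or 46°C, with or without a CHX pretreatment. BY4741 at 30°C was also given sodium azide at 0.5% or 0.8% for 30 min, ethanol at 5%, 7.5%, 10% or 15% for 15 min, or 10 mM dithiothreitol (DTT) for 15 min, each beside mock-treated cells. The strains yJB042 and yHG038 lost eIF3b or eIF4E, respectively, through an auxin-inducible degron whose TIR1 receptor was induced with β-estradiol, and their mock cultures received DMSO. Mock and depleted cultures of both strains were kept at 30°C or heated for 10 min to 42°C or 46°C. Of the reporter strains, yHG005, yHG006, yHG007 and yHG008 carry a hairpin in the leader of the reporter, yHG010 has none, and yHG026 and yHG027 carry the GCN4 leader, intact and mutated. Polysome-seq covered heat, 0.8% azide and 7.5% ethanol in BY4741. Groups at 42°C and 46°C share their 30°C lysates, and 5% and 10% ethanol share their mock lysates.

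The sedimentation of an mRNA depends on the mass of the particle it forms with proteins, so a longer mRNA pellets more readily. The buffer for Sed-seq held EDTA, which takes ribosomes apart, so polysomes are not meant to add to the pellet. Ribosomes load at the 5′ end of an open reading frame and travel its whole length, and a long frame can therefore carry many of them. Under stress, initiation slows, ribosomes run off and mRNAs gather with proteins into condensates, and stress granules are the microscopically visible form.

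The 87 mRNAs encode the largest yeast proteins, from 1609 to 4910 residues. Their lengths ran from 5001 nt in FIG2, a cell wall adhesin of mating cells, to 14904 nt in REA1 (also called MDN1), the AAA ATPase that remodels large ribosomal subunit precursors. After REA1 came DYN1, the dynein heavy chain (12450 nt), TRA1, a subunit of the SAGA and NuA4 acetyltransferases (11406 nt), TOM1, a ubiquitin ligase (9978 nt), and VPS13, a lipid transfer protein (9606 nt). The median was 5859 nt, against 1495 nt in other mRNAs. The members lie on 15 chromosomes, 41 of them on the plus strand, and 86 are verified ORFs. The deposited labels place 7 among ribosome biogenesis genes and 1, IRA2, among HSF1 targets. For all 87 the deposited length is the coding length plus a fixed 171 nt, a default that was also used for 29.1% of mRNAs of 3000 to 5000 nt and 6.67% of those under 3000 nt, so differences in untranslated regions are not in these lengths. Just inside the limit were ULS1 (5031 nt), DNF2 (5010 nt) and FIG2, and just outside were MYO2 (4979 nt), THO2 (4965 nt) and TCB3 (4960 nt). In the 2 lysates at 30°C, pSup was 0.418 and 0.562 for ULS1, 0.565 and 0.586 for DNF2 and 0.739 and 0.711 for FIG2. It was 0.621 and 0.716 for MYO2, 0.586 and 0.636 for THO2 and 0.681 and 0.619 for TCB3, so the values on both sides of the limit overlapped.

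Very long mRNAs were about as abundant as other mRNAs once counts were scaled by length. In the Total RNA of the heat experiment at 30°C their median was 25.2 and 25.5 TPM, a count scaled by length and library, in the 2 lysates, against 24.4 and 24.1 for other mRNAs, and 44 of the 87 lay above the latter in each. FAS1 and FAS2, the β and α subunits of fatty acid synthase, led with 519 and 529 TPM and with 307 and 316 TPM. FKS1, a catalytic subunit of 1,3-β-glucan synthase, followed with 251 and 229 TPM, beside ACC1, acetyl-CoA carboxylase, with 249 and 253 TPM. At the low end the values fell under 1 TPM, at 0.625 and 0.617. Libraries held between 2426960 and 36895321 estimated counts in Total, from 1612859 to 37988236 in the supernatant, from 4721670 to 34080208 in the pellet and from 3222971 to 32866083 in gradient fractions. The members took 4.01% to 9.18% of the ORF counts in Total, 1.00% to 7.22% in the supernatant and 4.17% to 21.2% in the pellet, so few of them were thinly measured: 3 members had under 100 estimated counts in some Total library. Among the 87, 6 are copies of YRF1, the helicase encoded in subtelomeric Y′ elements, and their estimates are uncertain. YRF1-1 and YRF1-5 had identical values, as did YRF1-3 and YRF1-7, and pSup of YRF1-6 at 30°C was 0.995 in replicate 1 and 0.199 in replicate 2. Paralogous pairs such as FKS1 and GSC2, ACC1 and HFA1, TOR1 and TOR2 or IRA1 and IRA2 share stretches of sequence whose reads are divided by estimation.

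At 30°C about as much of a very long mRNA was pelleted as stayed in the supernatant. Median pSup of the members was 0.548 and 0.603 in the 2 lysates, between 0.705 and 0.740 for mRNAs of 3000 to 5000 nt and 0.897 and 0.895 for shorter ones. Within the set pSup still declined with length, and the 48 members under 6000 nt had medians of 0.583 and 0.626. Those from 7500 to under 10000 nt (12 members) had 0.424 and 0.521, and the 3 longest had 0.343 and 0.449. Spearman's correlation of length and pSup over the 87 members was -0.56 and -0.53, a description over mRNAs measured in the same libraries.

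**Figure D1:**
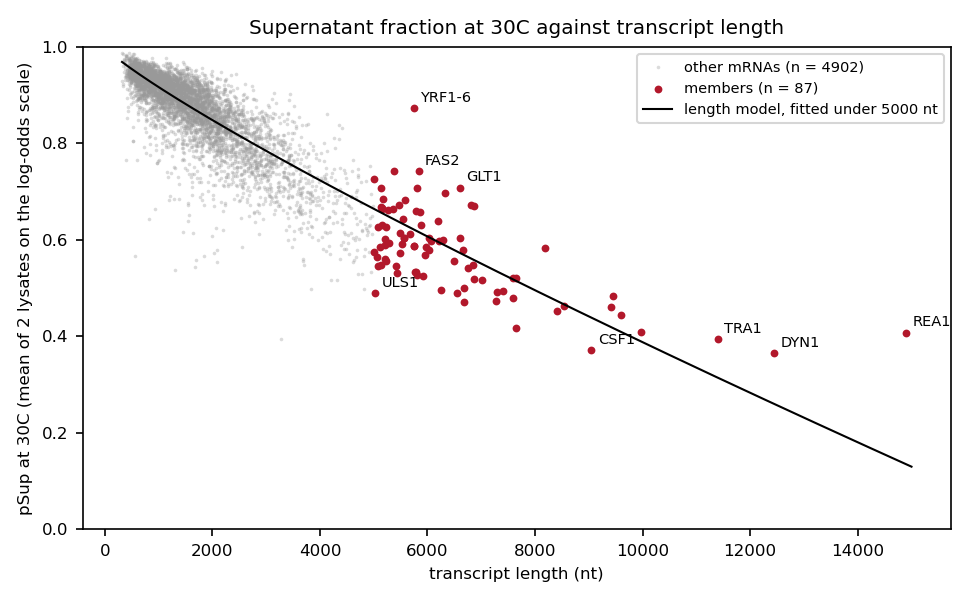
pSup at 30°C (vertical axis, fraction, mean of 2 lysates on the log-odds scale) against transcript length in nt, with 87 members in red, 4902 other mRNAs in grey and the length model fitted to the grey points as a line. REA1, DYN1 and TRA1, the longest members, lie above the line, and ULS1 lies below it.

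A curve of the form pSup = 1 - bL^x, in which L is the length, was fitted to the 4902 mRNAs under 5000 nt on the natural-log odds scale and extended to the members. It predicted a median pSup of 0.615, and the members lay at a median of -0.09 in log-odds from it, with 37 above and 50 below. The SD of the fitted mRNAs around the same curve was 0.403. The longest mRNA departed most: for REA1 the curve gave 0.135, whereas 0.354 and 0.464 were measured, a residual of 1.49. For DYN1 it gave 0.260 beside 0.313 and 0.421, and for TRA1 0.314 beside 0.343 and 0.449. With GLT1, glutamate synthase (0.59), REA1 and the uncertain YRF1-6 had the highest residuals. ULS1, a SWI/SNF family ATPase (-0.72), BUD3, a bud site protein (-0.48), and DNF3, a phospholipid flippase (-0.45), had the lowest.

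Residuals differed among functional groups of members. Of 7 metabolic enzymes, 5 lay above the curve with a median of 0.47, while all 81 members other than YRF1 had a median of -0.06. Of 10 members in a cytoskeleton and polarity list 2 lay above it (median -0.17), and of 4 genes of DNA replication, repair and segregation 0 did (median -0.15). The lists were drawn broadly. That of 10 also holds MLP1, MLP2 and USO1, and the ubiquitin ligases and regulators used below include BLM10 and ECM29. The 3 ABC transporters and flippases had a median of -0.38. The metabolic enzymes were also the most abundant group, at a median of 194 TPM beside 28.2 TPM for the 81. A median of 89.1% of their gradient RNA lay in the ribosome-bound fractions at 30°C, beside 84.1%. Over the 81 members the residual followed TPM with Spearman's correlation of 0.51 and the bound share with 0.64, while bound share and TPM were themselves related (0.57). Which of the 2 goes with sedimentation was not tested.

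The order of the members was similar between replicates. Between replicates of the 34 groups, Spearman's correlation of pSup over the 81 members ran from 0.797 (eIF3b-depleted cells at 46°C) to 0.988 (DTT). CSF1, a bridge-like lipid transfer protein of 9048 nt named after its values were seen, had the lowest pSup of these 81 in 56 of 77 lysates. CHC1, the clathrin heavy chain (5133 nt), had the highest in 31, FAS2 in 13 and USO1, a tether of endoplasmic reticulum vesicles, in 11. In the 7 reporter strains, unstressed at 30°C, the median over members lay between 0.573 and 0.639.

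**Figure D2:**
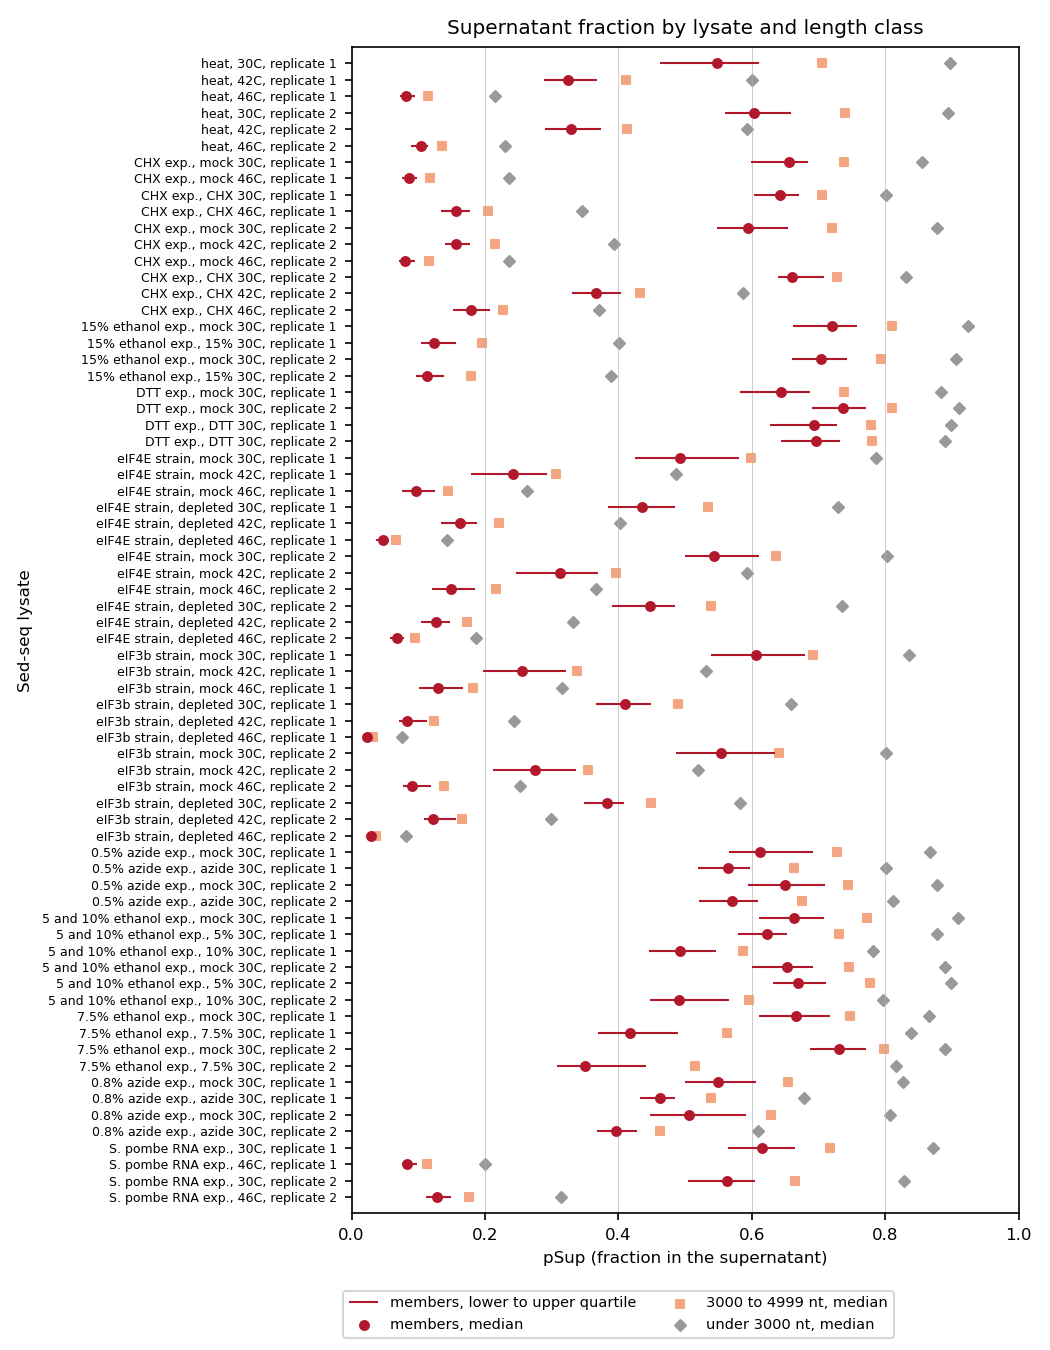
Median pSup (horizontal axis, fraction in the supernatant) of the members, with quartiles, of mRNAs of 3000 to 5000 nt and of shorter mRNAs in each Sed-seq lysate other than those of the reporter strains. The members lie lowest of the 3 length classes in each lysate drawn, from a median of 0.737 in a DTT mock lysate down to values under 0.05 in 46°C lysates of cells depleted of eIF3b or eIF4E.

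Heat moved the very long mRNAs into the pellet. Their median pSup was 0.324 and 0.329 after 42°C, and after 46°C it was 0.0810 and 0.104, while other mRNAs fell from 0.888 and 0.885 to 0.583 and 0.574 and then to 0.203 and 0.220. With limma on log-odds pSup, 83 of 87 members fell at 42°C and 0 rose, beside 99.7% down and 0% up among all mRNAs tested. At 46°C 86 fell and 0 rose, beside 100% and 0%. The fall passed the test for nearly every mRNA, so these counts do not set the members apart. TOM1 (-0.45, SE 0.249, adjusted p = 0.101) and VPS13 (-0.51, SE 0.241, adjusted p = 0.0622) were the only ones at 42°C outside the YRF1 copies that limma did not call.

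In log-odds the fall of the members was smaller than that of other mRNAs, an order that belongs to this scale. As a proportion of the 30°C value, the medians of the members fell further at both temperatures. At 42°C they went from 0.548 and 0.603 to 0.324 and 0.329, against 0.888 and 0.885 to 0.583 and 0.574 in other mRNAs. The median change was -0.79 and -1.12 in the 2 replicates at 42°C, against -1.67 and -1.67, and -2.50 and -2.60 for 46°C, against -3.39 and -3.23. These differ by 0.88 and 0.55 for the milder and by 0.89 and 0.64 for the stronger heat. Against mRNAs of 3000 to 5000 nt it shrank to means of 0.36 at both temperatures, since those mRNAs also fell less than short ones. When each lysate was centred on its median mRNA, the calls turned: 46 members rose and 0 fell at 42°C, and 67 rose and 0 fell at 46°C. The 2 comparisons share their 30°C lysates. Here and below, counts after centring come without a share over all mRNAs, so they do not by themselves set the members apart.

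FKS1, YBT1 and HKR1 had the largest falls at 42°C. In replicates 1 and 2, pSup of FKS1 was 0.758 and 0.651 in unheated cells, 0.287 and 0.254 after 42°C and 0.0727 and 0.0736 after 46°C, with no overlap between temperatures. Its log-odds changed by -1.88 (SE 0.214) at 42°C and by -3.42 (SE 0.214) at 46°C. YBT1, a vacuolar ABC transporter, went from 0.710 and 0.614 to 0.275 and 0.257 and then to 0.0626 and 0.0694, with changes of -1.70 and -3.33. HKR1, a mucin-like membrane sensor, changed by -1.64 at 42°C. RPO21, the largest subunit of RNA polymerase II, changed by -3.31 at 46°C, from 0.739 and 0.748 to 0.0913 and 0.0995. Adjusted p from limma was at most 1.5e-05 for these 6 values. The kinases TOR1 and TOR2 were close to each other at every temperature, with 0.434 and 0.526 for TOR1 and 0.472 and 0.570 for TOR2 at 30°C and 0.0726 and 0.0887 against 0.0916 and 0.0995 at 46°C.

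The smaller log-odds fall of very long mRNAs was not seen in every heat experiment. Members minus other mRNAs lay between -0.02 and 0.07 in the 4 heated mock lysates of the eIF3b strain, and between -0.00 and 0.10 in those of the eIF4E strain. Mock cells of the CHX experiment gave -0.06 and 0.28 after 46°C, and an experiment with added Schizosaccharomyces pombe RNA gave 0.43 and 0.20. The values thus lay on both sides of 0, while in the first heat experiment the lowest was 0.55. In eIF3b-depleted cells the difference was negative, at -0.14 and -0.21 for 42°C and -0.15 and -0.20 for 46°C. Libraries of the first heat experiment were single-end without molecular identifiers, whereas those of the eIF3b, eIF4E and CHX experiments had identifiers, and strain, library method and experiment cannot be told apart here.

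**Figure D3:**
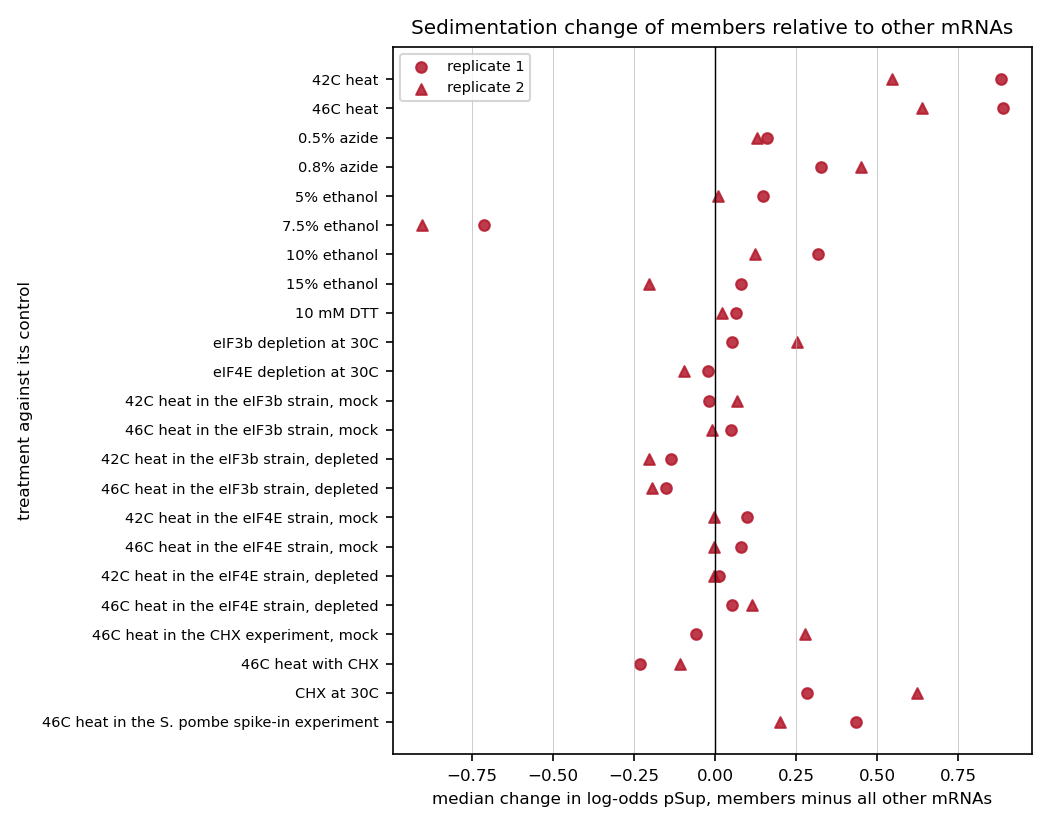
Median change in log-odds pSup of the members minus that of all other mRNAs (horizontal axis), for each treatment against its control, with a circle for replicate 1 and a triangle for replicate 2. The first 2 rows, heat in BY4741, lie between 0.55 and 0.89, and 7.5% ethanol lies at -0.71 and -0.90.

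CHX, which holds ribosomes on mRNAs, went with more of the very long mRNAs in the supernatant at 46°C. A median of 0.156 and 0.180 of each stayed there with CHX and 0.0866 and 0.0794 without it. Other mRNAs were higher with CHX too, at 0.330 and 0.357 against 0.220 and 0.220, as was the 3000 to 5000 nt class. At 30°C CHX shifted the members by -0.02 and 0.32 in log-odds while other mRNAs shifted by -0.31 and -0.30, so the members exceeded other mRNAs by 0.28 and 0.62. No test was run on this experiment.

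Long RNA from another yeast offered a comparison within the same tubes. S. pombe RNA was added to lysates of S. cerevisiae, and its transcripts of 5000 nt or more were measured too. They had a median pSup of 0.676 and 0.571 in 30°C lysates, near the 0.616 and 0.563 of the members. In 46°C lysates it was 0.392 and 0.502 for the S. pombe transcripts and 0.0833 and 0.128 for the members, so the medians of the S. pombe transcripts were higher in both lysates. Shorter S. pombe transcripts (1742) had 0.869 and 0.816, then 0.601 and 0.693.

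With 7.5% ethanol the log-odds falls had the opposite order of length to those of the first heat experiment. The members' median pSup went from 0.667 and 0.731 in mock cells to 0.417 and 0.349, while other mRNAs went from 0.856 and 0.882 to 0.824 and 0.798. By limma 85 of 87 members fell and 0 rose, against 51% down and 0.649% up among all mRNAs tested. The 3000 to 5000 nt class was close to the members, with 91.5% called down and 0% up. In log-odds the members changed by -0.97 and -1.55, mRNAs of 3000 to 5000 nt by -0.80 and -1.28 and those under 3000 nt by -0.20 and -0.59. Centring each lysate left 82 members down and 0 up. Over other mRNAs the change followed length with Spearman's correlation of -0.61, but among the 81 members it did not (0.03). The number of calls rests on the second ethanol lysate, since 14 members were called without it.

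No group of members escaped this fall. All 7 metabolic enzymes fell (median -1.57), as did all 8 members in transcription and mRNA turnover (-1.37) and all 10 of the cytoskeleton and polarity list (-1.30). The 3 ABC transporters and flippases had the smallest median of the groups with 3 or more members, at -0.96. POL2, the catalytic subunit of DNA polymerase ε, dropped from 0.692 and 0.749 to 0.328 and 0.300, a change of -1.73 (SE 0.281, adjusted p = 4.5e-08, limma). PMD1 changed by -1.72 (SE 0.302), from 0.611 and 0.702 to 0.278 and 0.234, and BUD3 by -1.71 (SE 0.282). LAA1, a partner of clathrin adaptors (-0.51, adjusted p = 0.0691), and NTE1, a phospholipase (-0.59, adjusted p = 0.0712), were the members that limma did not call. IRA2, a negative regulator of Ras, had 0.537 and 0.346 beside 0.560 and 0.656 in mock cells, a change of -0.69 (SE 0.280, adjusted p = 0.0302).

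At other ethanol doses the members did not fall so far beyond other mRNAs in log-odds. At 5% their median changed by -0.15 and 0.13, and at 10% by -0.65 and -0.55 beside -0.96 and -0.67 in other mRNAs. At 15%, 86 of 86 tested members fell and 0 rose, beside 100% and 0% of all mRNAs, and the median change was -2.90 beside -2.84. Median pSup then was 0.720 and 0.703 in mock cells and 0.123 and 0.113 with ethanol. RPO21 changed by -3.36 (SE 0.127), from 0.815 and 0.809 to 0.139 and 0.124, and MYO1, the type II myosin of the contractile ring, by -3.23 (SE 0.128), from 0.764 and 0.739 to 0.118 and 0.0962. YRF1-2 had the largest change, but its 2 replicates were -2.87 and -18.17. With centring, 8 members rose and 4 fell. The doses come from 3 separate experiments with their own mock cells.

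Azide moved very long mRNAs less than short ones. At 0.8% the members' median pSup went from 0.549 and 0.506 to 0.462 and 0.397, and log-odds changed by -0.38 and -0.47 beside -0.71 and -0.92 in other mRNAs. Of 87 members 28 fell and 0 rose by limma, beside 81.9% and 0.0592% of all mRNAs. Replicate differences of mock and azide lysates correlated at 0.227, and a block for the replicate number raised the count of members called. The calls depend on single lysates: without mock replicate 1 there were 0, and without mock replicate 2 there was 1. After centring 62 rose and 0 fell. RPO21 (-1.05, SE 0.244), CHC1 (-1.04, SE 0.244) and USO1 (-1.03, SE 0.252) had the largest called changes, each with an adjusted p under 0.05 in limma. For CHC1 pSup was 0.691 and 0.725 in mock cells and 0.486 and 0.436 with azide. Metabolic enzymes went with them, as 5 of 7 fell (median -0.94), while 0 of 3 ABC transporters and flippases were called, with changes between 0.11 and 0.24. At 0.5% azide the members changed by -0.27 and -0.33 and other mRNAs by -0.43 and -0.46.

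DTT gave no called change. Median pSup was 0.644 and 0.737 in mock cells and 0.693 and 0.697 with DTT, so the treated lysates lay between the mock ones. With limma 0 of 86 members rose and 0 fell, 0 had an unadjusted p under 0.05, and 0.0197% and 0.217% of all mRNAs were called. In log-odds the median member changed by 0.22 and -0.19 in the 2 replicates, and the median of other mRNAs by 0.16 and -0.21. Members and other mRNAs thus moved together, and the direction of the members depended on which mock lysate was left out.

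Depletion of eIF3b lowered pSup of most members at 30°C. The median went from 0.606 and 0.554 in mock cells to 0.410 and 0.382, and 76 of 86 fell and 1, a YRF1 copy, rose, beside 92.4% and 0.0201% of all mRNAs. The median change was -0.83, against -0.97 in other mRNAs. FAS2 fell from 0.791 and 0.747 to 0.492 and 0.382 (-1.46, SE 0.212), CHC1 by a change of -1.44 (SE 0.209) and GCN1, an activator of the Gcn2 kinase, by -1.32 (SE 0.213), from 0.709 and 0.648 to 0.381 and 0.342. All 7 metabolic enzymes fell (median -1.20), and 0 of 3 ABC transporters and flippases did (median -0.09). When lysates were centred, 15 members rose and 5 fell. Depletion of eIF4E changed the members' median by -0.39, against -0.32 elsewhere. There 1 of 86, a YRF1 copy, fell and 0 rose by limma, and 0.0405% and 0% of all mRNAs were called. An unadjusted p under 0.05 was found for 17 members, beside 605 of the 4938 mRNAs tested.

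Abundance of very long mRNAs in Total RNA was tested with edgeR, whose changes are relative to a typical mRNA of the same libraries. In TPM the median mRNA itself shifted, by -0.10 at 42°C, -0.16 in 0.8% azide, -0.46 in 7.5% ethanol, 0.28 in DTT, 0.76 on eIF3b depletion and 0.20 on eIF4E depletion in log2 units, so a fold read from TPM differs from the tested one by about that much. Amounts of RNA per cell were not measured.

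In the Sed-seq heat experiment their abundance was almost untouched within 10 min. In Total RNA of the Polysome-seq heat experiment they took 8.62% and 8.46% of ORF counts at 30°C. After 42°C it was 4.79% and 4.95%, and after 46°C 9.18% and 8.22%. Abundance was not tested in the latter experiment, and the calls here are from Sed-seq lysates. At 42°C 2 of 87 rose and 0 fell, beside 5.98% up and 1.25% down among all mRNAs, and the median change was -0.00. The risers act on opposite sides of Ras and cAMP signalling. IRA2 held 32.7 and 33.3 TPM at 30°C and 63.7 and 68.2 TPM at 42°C, a log2 change of 1.09 (SE 0.0437, edgeR adjusted p = 2.8e-07). In the separate 46°C cultures it held 35.8 and 37.8 TPM. CYR1, adenylate cyclase, rose by 0.31 (SE 0.0727, adjusted p = 0.0366), from 14.8 and 15.1 to 16.8 and 18.04 TPM. Same-numbered Total libraries of the Sed-seq heat experiment deviated together, and with the replicate block 6 members rose. Without 30°C replicate 2, 1 member was called, and without 42°C replicate 2, 3 were. At 46°C edgeR called 0 up and 0 down, beside 0.404% and 0.0367%, and 320 of the 5450 mRNAs tested had an unadjusted p under 0.05. DESeq2 also called 0, and 8 members had an unadjusted p under 0.05. The number of calls changed when single lysates were left out, as given at the end.

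In 7.5% ethanol more members fell than rose. Of 87, 10 rose and 49 fell, beside 29.2% up and 29.4% down among all mRNAs, with a median of -0.23. The 3000 to 5000 nt class was similar, with a median of -0.27, 16.02% up and 59.2% down. IRA2 rose most, by 2.64 (SE 0.0716, adjusted p = 4.2e-09, edgeR), from 55.2 and 51.9 TPM to 246 and 242 TPM. GSC2, the stress-induced glucan synthase subunit, rose by 0.99 (SE 0.240), with 31.9 and 54.6 TPM in mock cells and 48.9 and 75.9 TPM in ethanol, so its groups overlapped in TPM. REA1 rose by 0.89 (SE 0.0868), from 52.5 and 49.7 to 74.9 and 63.1 TPM. The largest falls were in APC1, a subunit of the anaphase-promoting complex (-0.93, SE 0.0685, from 14.3 and 14.2 to 5.66 and 5.23 TPM), MYO1 (-0.89, SE 0.0703) and CCH1, a calcium channel (-0.86, SE 0.0770). Of 10 members in the cytoskeleton and polarity list 7 fell and 1 rose, and of 5 ubiquitin ligases and regulators 4 fell and 1 rose. Because of the shift of the median mRNA, 5 of the 10 risers were lower in TPM, and 0 of the 49 fallers were higher.

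At 15% ethanol the direction was mixed. There 16 rose and 12 fell, 6 of the latter YRF1 copies, beside 13.1% up and 10.1% down. DUR1,2, urea amidolyase, rose by 1.20 (SE 0.0434), from 15.2 and 15.1 to 33.2 and 33.8 TPM. GSC2 rose by 0.92 (SE 0.0353) and FAS1 by 0.50 (SE 0.0223), the latter from 1124 and 1126 to 1563 and 1506 TPM. URA2, the enzyme of the first steps of pyrimidine synthesis, fell by 0.69 (SE 0.0300), from 284 and 277 to 171 and 164 TPM. YRF1-1 and YRF1-5, which share one estimate, were next. Calls numbered 18 without mock replicate 1 and 16 without mock replicate 2, in place of 28.

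With 0.8% azide most members fell in Total. Of 87, 7 rose and 60 fell, beside 21.3% up and 19.1% down among all mRNAs, and the median change was -0.34 beside 0.01. The 3000 to 5000 nt class had a median of -0.19 and shorter mRNAs 0.01. All 10 members in the cytoskeleton and polarity list fell (median -0.39), and 7 of 8 in transcription and mRNA turnover did (-0.51). SEC16, a scaffold of COPII vesicle sites, fell by 0.81 (SE 0.0741), from 93.9 and 96.3 to 46.3 and 52.7 TPM. URA2 fell by 0.76 (SE 0.0685), from 494 and 467 to 253 and 263 TPM, and TOR1 fell by 0.72 (SE 0.0553). DUR1,2 rose by 1.09 (SE 0.0934), from 7.68 and 8.52 to 16.9 and 14.6 TPM. FKS3, a glucan synthase relative of spore walls, rose by 1.023 (SE 0.115) but from only 1.41 and 1.58 TPM, and FIG2 rose by 0.58 (SE 0.0569).

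**Figure D4:**
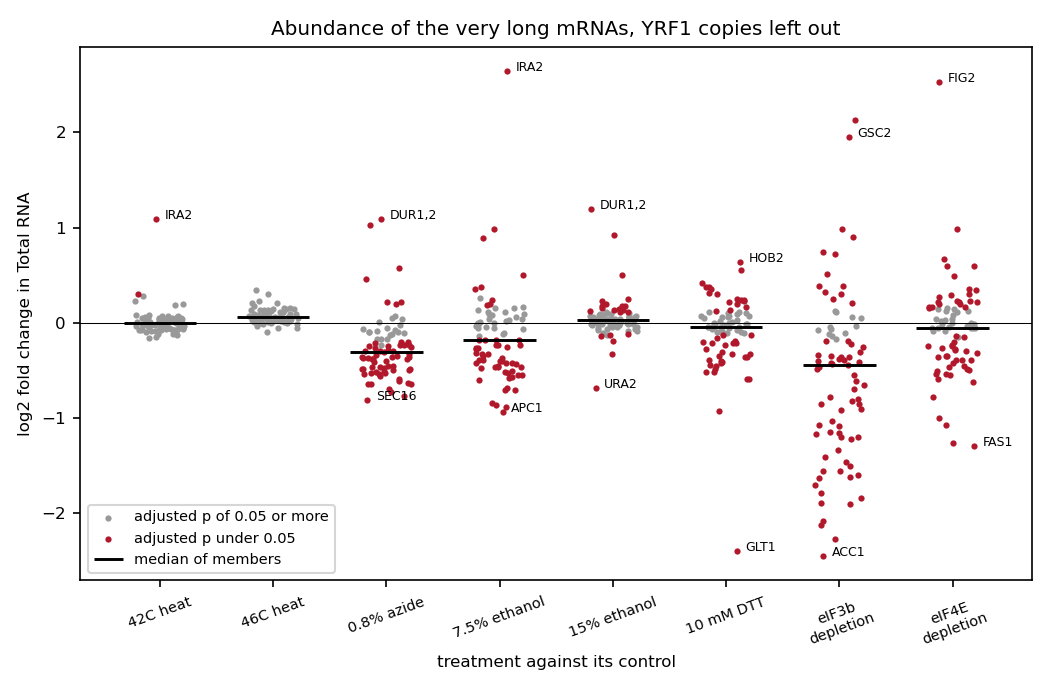
Change in Total RNA (vertical axis, log2 fold change by edgeR) of the 81 members other than YRF1 in 8 comparisons, with called members in red, the others in grey and the median as a bar. IRA2 lies at 2.64 in 7.5% ethanol and GLT1 at -2.39 in DTT, each apart from the other members drawn, and ACC1 is the lowest on eIF3b depletion at -2.45.

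DTT, which reduces disulfides in the secretory pathway, went with changes in both directions. In all 17 rose and 34 fell, beside 24.9% up and 26.7% down. GLT1 fell by 2.39 (SE 0.0465, adjusted p = 7.9e-11, edgeR), from 64.8 and 62.5 TPM to 15.0 and 14.3 TPM. DUR1,2 fell by 0.92 (SE 0.119) and URA2 by 0.59 (SE 0.0402), and 6 of 7 metabolic enzymes fell in all. Of 12 members in membrane traffic and lipid transfer 6 rose and 2 fell, and of 10 in the cytoskeleton and polarity list 1 rose and 4 fell. Differences between these groups were not tested. HOB2, a bridge-like lipid transfer protein, led with 0.64 (SE 0.0436), from 17.9 and 17.6 to 32.9 and 34.03 TPM. ESC1, a silencing protein at the nuclear rim, rose by 0.55 (SE 0.0469) and SEC16 by 0.42 (SE 0.0392), the latter from 78.3 and 73.7 to 121 and 126 TPM. In TPM 9 of the 34 fallers were higher, and the 6 of 7 metabolic enzymes were lower on that scale too.

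Depletion of eIF3b went with larger falls in metabolic enzymes. There 14 members rose and 56 fell, beside 41.8% up and 38.7% down, and the median was -0.42 against -0.17 for the 3000 to 5000 nt class and -0.01 for shorter mRNAs. ACC1 fell by 2.45 (SE 0.0619, adjusted p = 1.6e-11, edgeR), from 226 and 216 TPM to 65.1 and 66.8 TPM. URA2 fell by 2.27 (SE 0.112), from 234 and 225 to 85.7 and 70.1 TPM, and FAS1 by 2.12 (SE 0.0600), from 427 and 407 to 154 and 159 TPM. All 7 members in ribosome biogenesis and splicing fell (median -1.22). The risers included GSC2 (1.95, SE 0.0785), from 26.7 and 29.7 to 182 and 172 TPM, BPH1, a BEACH domain protein (0.99, SE 0.0733), and FIG2 (0.90, SE 0.0764). On the TPM scale 22 of the 56 fallers were higher, 6 of 7 in ribosome biogenesis and splicing were lower, and 4 of 7 metabolic enzymes were lower.

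Loss of eIF4E also lowered metabolic enzymes, of which 6 of 7 fell and 1 rose. It gave 22 rises and 36 falls, beside 30.7% up and 29.2% down, with a median of -0.06. FIG2 rose by 2.53 (SE 0.194), from 23.7 and 17.7 TPM to 131 and 141 TPM, and GSC2 (0.67, SE 0.0906) and BPH1 (0.60, SE 0.0664) followed. FAS1 fell by 1.30 (SE 0.0900), from 404 and 394 to 197 and 172 TPM, ACC1 by 1.26 (SE 0.107) and URA2 by 1.08 (SE 0.0632). All 5 ubiquitin ligases and regulators fell (median -0.36), 4 of them also in TPM. FKS3 rose in both depletions, by 2.13 (SE 0.119) and 0.98 (SE 0.139), but from under 2 TPM, and it was named after its values were seen. A test of the difference between the depletions was not run.

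Most of the very long mRNA recovered on gradients at 30°C lay in the ribosome-bound fractions. The summed gradient signal was a median of 50.8% and 40.2% of Total for the members in the heat experiment, and shares are of that part. In the heat experiment the members' median Free share, the part of the gradient RNA above the monosomes, was 16.6% and 15.9%, near the 16.1% and 14.7% of other mRNAs. Their median share in the pool of mono- and disomes was larger, 25.8% and 20.7% against 18.99% and 16.9%, and their share in heavier polysomes smaller, 55.95% and 61.9% against 63.4% and 66.9%. CHC1 and FAS2 were the most ribosome-bound, at mean shares of 93.2% and 92.6%, and ACC1 was next. FKS3 (59.3%) and the uncertain YRF1-6 (41.2%) and YRF1-2 (61.6%) were the least. REA1, the longest, had 90.8% and 90.7% in the ribosome-bound fractions, and 40.2% and 36.7% of it lay in the mono- and disome pool. These shares rest on position in the gradient, which also depends on the mass of the particle. The paper found a translationally repressed reporter mRNA in heavy polysome fractions, where it stayed with EDTA. How much of the members' shares came from ribosomes was not tested.

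Less of the very long mRNA was recovered in gradient fractions after heat. The summed gradient signal over Total had a median of 50.8% and 40.2% for members in unheated cells, 33.8% and 31.7% after 42°C and 10.8% and 15.5% after 46°C. Other mRNAs gave 59.2% and 48.8%, then 54.2% and 50.5%, then 25.6% and 32.1%. Loss when lysates were clarified and pelleting in the gradient cannot be told apart, and shares within the gradient describe the recovered RNA.

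**Figure D5:**
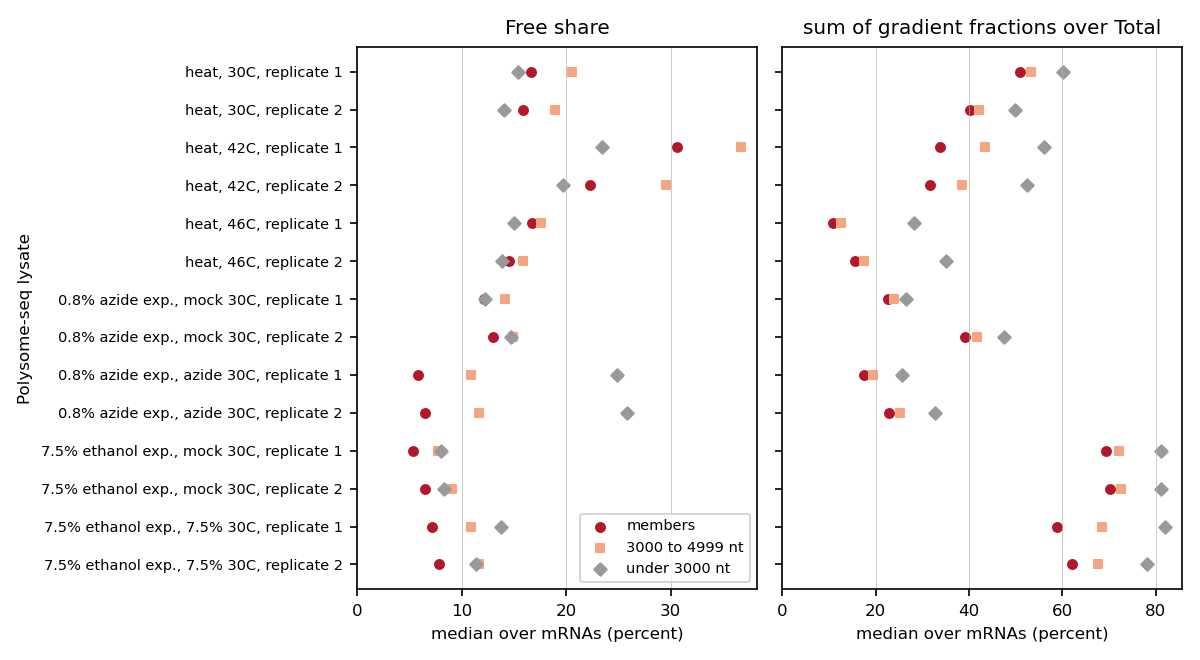
Median Free share of the gradient signal (left, percent) and median summed gradient signal over Total (right, percent) for 3 length classes in each of the 14 Polysome-seq lysates. In the 2 azide lysates the members lie at 5.84% and 6.51% Free, while mRNAs under 3000 nt lie at 24.9% and 25.8%.

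Ribosome association, tested by edgeR as the change of polysome over Total RNA relative to other mRNAs, fell in most members with heat. At 42°C 0 rose and 58 fell, beside 9.63% up and 10.3% down of all mRNAs, with a median of -0.61. The classes were ordered by length, as mRNAs of 3000 to 5000 nt had -0.30 and shorter ones 0.13. FKS1 changed by -1.12 (SE 0.175, adjusted p = 0.00243), and its polysome signal over Total went from 30.8% and 26.95% to 10.3% and 11.4%. REA1 (-1.11, SE 0.202) and RPA190, the largest subunit of RNA polymerase I (-1.10, SE 0.264), were next among members with at least 100 estimated counts in every polysome and Total library, REA1 from 24.1% and 20.1% to 8.26% and 8.42%. CCH1, named after its values were seen and below that count in the polysome library of 42°C replicate 1, had a change of -1.18 (SE 0.143). Single libraries carried much of this count: 2 calls remained in number without 30°C replicate 1 and 3 without 30°C replicate 2, and there were 36 without 42°C replicate 1 and 16 without 42°C replicate 2. The Free share was higher than at 30°C in 85 of 87 members in replicate 1 and in 78 of 84 in replicate 2.

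At 46°C the fall was broader. There 1 rose and 69 fell, beside 31.1% up and 23.1% down, with medians of -0.77 for members, -0.61 for the 3000 to 5000 nt class and 0.26 for shorter mRNAs. All 7 metabolic enzymes, all 10 in the cytoskeleton and polarity list, all 12 in membrane traffic and all 8 in transcription fell. RPA190 changed by -1.37 (SE 0.257), FAS2 by -1.30 (SE 0.223) and ACC1 by -1.29 (SE 0.210), with adjusted p of at most 0.00102 in edgeR. For FAS2 polysome over Total went from 36.4% and 33.4% to 5.49% and 10.4%. FKS3 was the riser, by 0.47 (SE 0.184, adjusted p = 0.0455), named after its values were seen. Within the gradient the Free share moved little, to medians of 16.7% and 14.6%. The members' median polysome share of the recovered RNA was higher, 58.9% and 71.8% against 55.95% and 61.9% at 30°C. In other mRNAs it was 64.9% and 72.4% against 63.4% and 66.9%. Less RNA was recovered from these gradients, so the test against Total does not separate lost RNA from lost ribosomes. With Free RNA in place of Total as the reference, 12 members rose and 25 fell. For this reference, here and below, no share over all mRNAs is given.

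Azide at 0.8% changed where the remaining RNA lay. Members' median Free share went from 12.1% and 12.97% in mock cells to 5.84% and 6.51%, and it was lower in 83 and 87 of 87 members, whereas other mRNAs went from 12.4% and 14.8% to 23.2% and 24.3%. Against Total, 24 members rose and 3 fell in ribosome association, beside 8.49% up and 7.67% down, and the median of 0.06 was close to the 0.03 of other mRNAs. Against Free RNA 86 rose and 0 fell, a count with no share over all mRNAs beside it. GSC2 rose by 0.63 (SE 0.0861), with Free shares of 28.7% and 25.5% in mock cells and 11.7% and 14.4% in azide. FAS2 (0.60, SE 0.0900) and URA2 (0.57, SE 0.0782) were next, and 4 of 7 metabolic enzymes rose. FIG2 changed by -0.39 (SE 0.0913), RIM15, a stationary phase kinase, by -0.26 (SE 0.0737), and SPO14, a phospholipase D, by -0.24 (SE 0.0629), all with adjusted p under 0.05. Without mock replicate 2 there were 17 calls and without azide replicate 2 there were 15, in place of 27.

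In 7.5% ethanol few members were called in ribosome association. None rose (0) and 4 fell by edgeR, beside 0.159% up and 1.75% down. An unadjusted p under 0.05 was found for 25 members, beside 985 of the 5661 mRNAs tested. APC1 changed by -0.61 (SE 0.114, adjusted p = 0.0298), HFA1, the mitochondrial acetyl-CoA carboxylase, by -0.58 (SE 0.125, adjusted p = 0.0472) and MOT1, a remover of TATA-binding protein, by -0.51 (SE 0.0844, adjusted p = 0.0157). With any 1 of the 4 lysates left out there were 0 calls, and DESeq2 made 9. The median Free share was 5.29% and 6.46% in mock cells and 7.18% and 7.81% in ethanol, a smaller step than the 7.97% and 8.40% to 13.4% and 11.4% of other mRNAs. IRA2, which led the rises in Total, had a change of 0.33 here (SE 0.131, adjusted p = 0.235).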

How the data were processed

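The authors trimmed reads with Trim Galore 0.6.10 and quantified them with kallisto 0.48.0 on transcripts of build R64, and per the submitters' processing notes STAR 2.7.10b, SAMtools 1.16.1 and UMI-tools 1.1.4 were also used. The deposited files hold estimated counts, not whole, and TPM per transcript and library, with duplicates removed by molecular identifier in some experiments. The authors fitted mixing ratios of supernatant and pellet to Total and deposited them together with pSup, a fraction, and for Polysome-seq they deposited a signal scaled to added S. pombe RNA. Recomputed pSup differed from the deposited fraction by at most 5.6e-16. Authors' fold changes were not used. The authors' lengths chose the members, and members and gene lists were chosen with earlier results of these data known.

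Estimated counts were rounded for edgeR 4.0.16 (TMM, filterByExpr, quasi-likelihood test), with DESeq2 1.42.0 as an alternative. Log-odds pSup was tested, where supernatant plus pellet held 20 estimated counts or more in each lysate, with limma 3.58.1 (trend, R 4.3.3). All nuclear ORFs of an experiment were fitted, p-values were 2-sided and adjusted by Benjamini-Hochberg over all mRNAs tested, and 0.05 was the threshold. Each of 20 comparisons was between 2 lysates per group, so limma and edgeR borrow the spread from other mRNAs, and the labels number lysates of a group as biological replicates. An error in a mixing ratio moves all mRNAs of a lysate together, so counts after centring each lysate on its median mRNA were also made. Gradient shares are the signal of a fraction over the sum of fractions, for mRNAs with at least 20 estimated counts over them. In azide and ethanol gradients all ribosome-bound RNA is 1 pool. Tests were checked on simulated data. Python 3.11.15 was used with pandas 2.3.3, scipy 1.17.1, matplotlib 3.10.9 and numpy 2.4.6. Counting errors alone do not cover differences between lysates.

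Named mRNAs are the 5 longest members, 1 mRNA from the study that is not reported here, per comparison up to 3 rises and 3 falls among called members whose replicates moved one way and whose libraries each held 100 estimated counts or more, the 3 highest and 3 lowest by residual and by bound share, and FAS1, FAS2, ACC1, FKS1, GSC2, TOR1, TOR2, IRA1, IRA2, GCN1, TRA1 and DYN1. Same-numbered Total libraries deviated together at a correlation above 0.1 in 3 of 3 pairs of the heat and 15 of 15 of the eIF3b experiment, and the replicate block was fitted for all. Alternatives were tool, normalization, filters, trend, centring, the reference fraction, the block and each lysate left out.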

Additional observations from a re-analysis of the deposited data

How the results depend on the processing

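Of the values for single mRNAs under alternatives, 527 kept direction and side of the threshold, 52 lost the call and 10 reversed, and of the counts and medians 135 stayed within 1.5 times, 35 moved and 5 reversed. Centring each lysate on its median mRNA reversed pSup calls to 46 at 42°C, 67 at 46°C and 62 in 0.8% azide, gave 12 at 15% ethanol, 20 on eIF3b depletion and 10 on eIF4E depletion, and turned YBT1 (0.036 at 42°C and 0.037 at 46°C), HKR1 (0.094 at 42°C) and RPO21 (0.055 at 46°C). Such values follow from subtracting a median that fell. Counts in this section, and those above with a lysate left out, come without a share over all mRNAs. They do not by themselves set the members apart. With Free RNA as the reference, calls in ribosome association were 37 at 46°C, 86 in azide and 27 in 7.5% ethanol, and FIG2 (2.89), RIM15 (2.22), SPO14 (2.73), APC1 (0.15), HFA1 (0.27) and MOT1 (0.62) reversed, and the cause was not tested.

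The replicate block gave 6 Total calls at 42°C, 69 pSup calls in azide, 12 in 7.5% ethanol and 11 for ribosome association in 7.5% ethanol, and it moved no other count by over 1.5 times. Each of the last 3 has a single pair of numbers. The correlation was 0.227 for azide pSup, above the limit of 0.1, and -0.00969 for ethanol pSup and -0.124 for ethanol gradients. The main fits did not take the numbers as pairing, and the azide pSup count depends on that choice. Crossed numbers, tried after seeing the data, gave 86 pSup calls in 15% ethanol and 1 for ribosome association in 7.5% ethanol. DESeq2 gave 18 Total calls in 15% ethanol and 9 for ribosome association in 7.5% ethanol, and size factors gave 7 there. With at least 100 counts eIF4E depletion had 0 pSup calls. The length model fitted to 500 to 3000 nt gave a median residual of -0.19. Against mRNAs of 3000 to 5000 nt the heat differences were 0.36 and 0.36.

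Leaving out 1 lysate moved Total calls between 1 and 3 at 42°C, 0 and 14 at 46°C and 16 and 31 in 15% ethanol. For pSup the counts ran from 0 to 41 in azide, from 14 to 86 in 7.5% ethanol and from 0 to 70 in DTT. Ribosome association had 2 to 36 calls at 42°C, 15 to 22 in azide and 0 in 7.5% ethanol. Where a group kept 1 lysate, it was assumed to vary like the others.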
